A study of Mus musculus with 3 samples.

Results

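This report covers the mouse genes whose symbols begin with Ptpn or Ptpr, the classical protein tyrosine phosphatases, and the PU.1 binding peaks at them. The genes were picked by symbol among the protein-coding genes of a RefSeq table for GRCm38 (mm10), and 38 of its 21887 protein-coding genes on the assembled chromosomes matched. For each one, the peaks that overlapped the gene span plus 5 kb on each side were counted. The gene set was proposed with the peak lists in view, so its counts are given as a description and carry no test.

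PU.1 occupancy had been mapped by ChIP-seq, the sequencing of DNA recovered with an antibody to a bound protein, in i660BM cells. These are cultured pro-B cells of C57BL/6 origin that carry a doxycycline-inducible PU.1 system and grow with IL-7. The 2 ChIP libraries, numbered 2 and 3 as in their titles, both came from cells induced for 24 h at 70 ng/ml doxycycline and were made with the polyclonal anti-PU.1 antibody T-21. The remaining sample was input DNA, for which no peak list was analysed here. Both ChIP libraries share the inducible construct and the induction, so binding that depends on induced PU.1 and binding that does not cannot be told apart. The peak lists hold no expression values, and the pro-B label was not checked against marker transcripts.

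Protein tyrosine phosphatases remove phosphate from tyrosine residues and so oppose or reset tyrosine kinases. In B cells and myeloid cells the receptor-type phosphatases CD45 and CD148 keep Src family kinases ready for activation, while cytoplasmic phosphatases recruited to inhibitory receptors damp the signal. PU.1, an ETS family transcription factor, binds purine-rich DNA around a GGAA core and regulates many genes of both lineages.

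Replicate 2 listed 74494 peaks and replicate 3 listed 6169, and the merged list of the series held 49385 intervals. Each peak carries a score from the authors' peak caller, taken to be the p-value on a scale of −10 log10. The score starts at 70.0 in both lists, and 3100 acts as a near ceiling that 2656 replicate 2 peaks and 11 replicate 3 peaks reached. Scores rank peaks within a list only. A merged stretch of overlapping peaks holding at least 1 peak of each replicate is called a shared region, and 6133 exist genome-wide.

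Promoter sequences are given here for some of these genes that differed in their PU.1 peaks at the start site. RefSeq (GRCm38.p6) gave start sites for 32 members, in 46 promoter windows of 300 bases. Shown are the 250 bases before a start site, in the direction of transcription. Ptpn22 and Ptpn7 come first, the members with a listed start site inside a shared region. Ptprj and Ptpn6 follow, where the promoter met a replicate 2 peak alone, and then Ptprc, where it met none. Capitals mark GAGGAA, a purine-rich ETS-type sequence, which reads TTCCTC where it lies on the opposite strand.
Ptpn22, first start site, chr3:103859545-103859794, plus strand: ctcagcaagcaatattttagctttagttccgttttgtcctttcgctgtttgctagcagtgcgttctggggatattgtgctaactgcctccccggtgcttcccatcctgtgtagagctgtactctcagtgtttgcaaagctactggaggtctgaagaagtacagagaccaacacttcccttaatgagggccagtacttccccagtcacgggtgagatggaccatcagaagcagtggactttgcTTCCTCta
Ptpn22, second start site, chr3:103860027-103860276, plus strand: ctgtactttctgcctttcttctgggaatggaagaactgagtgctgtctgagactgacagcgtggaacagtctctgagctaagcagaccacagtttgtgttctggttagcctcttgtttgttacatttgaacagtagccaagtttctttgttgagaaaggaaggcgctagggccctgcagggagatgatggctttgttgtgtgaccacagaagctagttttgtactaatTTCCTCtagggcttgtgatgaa
Ptpn7, chr1:135132450-135132699, plus strand: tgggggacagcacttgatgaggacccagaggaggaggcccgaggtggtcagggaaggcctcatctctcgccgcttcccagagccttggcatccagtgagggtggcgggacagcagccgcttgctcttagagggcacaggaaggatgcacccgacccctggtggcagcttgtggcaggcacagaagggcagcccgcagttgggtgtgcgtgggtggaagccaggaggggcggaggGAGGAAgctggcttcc
Ptprj, chr2:90580596-90580845, minus strand: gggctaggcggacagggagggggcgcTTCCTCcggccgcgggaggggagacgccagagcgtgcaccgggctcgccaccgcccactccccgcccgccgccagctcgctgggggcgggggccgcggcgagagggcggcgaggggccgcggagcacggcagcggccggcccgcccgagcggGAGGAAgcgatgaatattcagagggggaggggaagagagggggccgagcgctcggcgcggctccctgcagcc
Ptpn6, chr6:124738710-124738959, minus strand: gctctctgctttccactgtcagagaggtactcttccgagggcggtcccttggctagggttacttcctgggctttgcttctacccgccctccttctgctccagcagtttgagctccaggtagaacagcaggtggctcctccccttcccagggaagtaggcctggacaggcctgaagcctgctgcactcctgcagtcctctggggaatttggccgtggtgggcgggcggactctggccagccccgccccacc
Ptprc, chr1:138175306-138175555, minus strand: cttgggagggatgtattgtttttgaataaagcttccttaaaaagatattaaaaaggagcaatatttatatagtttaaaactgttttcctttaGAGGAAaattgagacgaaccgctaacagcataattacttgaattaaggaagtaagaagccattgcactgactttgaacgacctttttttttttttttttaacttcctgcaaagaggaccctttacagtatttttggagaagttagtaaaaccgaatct

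Each Ptpn22 window held 1 GAGGAA match close to the start site, beginning 8 and 22 bases before it. The Ptpn7 window held 1 match, 16 bases before its start site. The printed Ptprj window held 2 matches, 224 and 72 bases before the start site, the printed Ptprc window held 1 at 158 bases, and the Ptpn6 window held none. Ptpn7, Ptprj and Ptprc each have another listed start site, whose window is not shown. Those windows held 1, 1 and 0 matches. Over all member windows, 21 of 46 held GAGGAA on either strand (45.7%), against 27.4% of the 21263 promoter windows of protein-coding genes. The longer GAGGAAGT, which contains GAGGAA, was in none of the member windows and in 3.13% of all windows. The core GGAA, contained in both, was in 95.7% of both sets. A match is a string of letters, not a measured binding site.

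Peaks were also counted over the promoter windows. A replicate 2 peak met 13 of the 46 member windows (28.3%), against 35.1% of all windows, and these belonged to 10 members. GAGGAA was present in 8 of those 13 windows and in 13 of the 33 windows without a peak. Over all protein-coding genes the corresponding shares were 30.4% and 25.7%. A shared region met 4 of the 46 member windows, those of Ptpn22 and Ptpn7, and 3.33% of all windows. At Ptpn7 only the replicate 2 peak reached the windows, since the replicate 3 peak ended 1.04 kb before the nearer start site. Of the windows of all genes under a shared region, 42.9% held GAGGAA and 17.8% held GAGGAAGT.

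Of the 38 members, 36 had a replicate 2 peak, against 70.7% of all protein-coding genes. A replicate 3 peak was present at 21 (15.1% of all genes), a merged interval at 34 (62.6%) and a shared region at 21 (15.3%). The shared regions numbered 35, with 14 members holding 1, 2 members holding 2, 4 holding 3 and Ptprj holding 5. At least 2 shared regions were found at 7 members and at 2.94% of all protein-coding genes, and at least 3 at 5 members and at 0.745%. These shares were not matched for gene length, and the members are long genes, as described below. Counting only regions within 5 kb of a gene end, 11 members had one, against 9.22% of all genes. No replicate 2 peak was counted for more than 1 member.

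**Figure D1:**
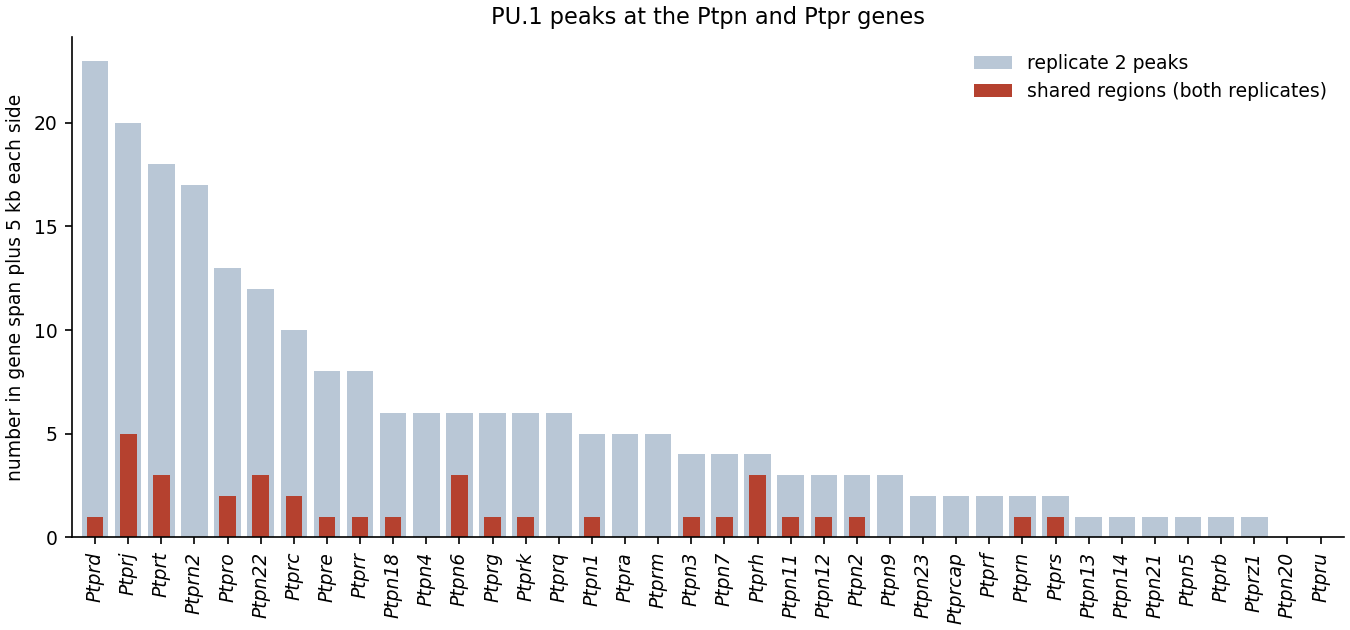
Number of replicate 2 peaks (pale bars) and shared regions (dark bars) in the gene span plus 5 kb on each side, for each of the 38 genes, ordered by replicate 2 peaks. Ptprd, Ptprj, Ptprt and Ptprn2 had 17 to 23 replicate 2 peaks, but their shared regions numbered 1, 5, 3 and 0, and Ptpn20 and Ptpru had no peak.

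The members are long genes, and a longer span offers more room for peaks. Their median span was 93.6 kb, against 17.2 kb for all protein-coding genes. Pooled over the windows, members held 2.31 replicate 2 peaks and 0.368 shared regions per 100 kb, against 3.83 and 0.333 for all protein-coding genes. Among the 5 members under 20 kb, 4 had a shared region (Ptpn6, Ptpn7, Ptpn18 and Ptprn), where 9.0% of all genes of that length did. The counts were 1 of 2 at 20 to 50 kb (16.5% of all genes), 6 of 12 at 50 to 100 kb (21.8%), 4 of 10 at 100 to 200 kb (32.5%) and 6 of 9 above 200 kb (43.2%). A replicate 2 peak was present at 5 of 5 members under 20 kb (57.3% of all genes) and 2 of 2 at 20 to 50 kb (80.6%). At 50 to 100 kb it was 10 of 12 (89.7%), at 100 to 200 kb 10 of 10 (94.1%) and above 200 kb 9 of 9 (97.3%). Most genes of such length thus had a replicate 2 peak.

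**Figure D2:**
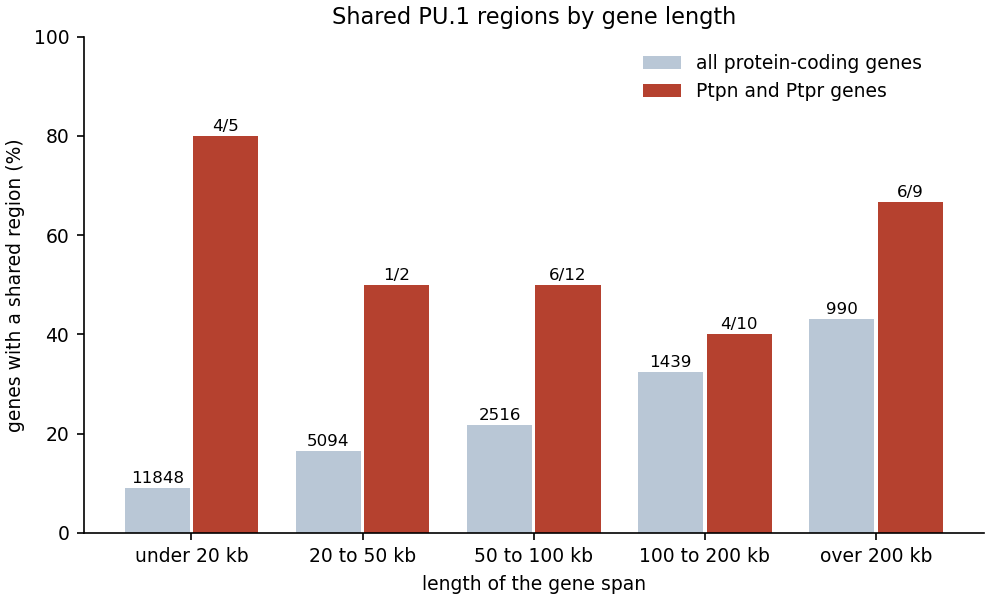
Percentage of genes with a shared region in 5 classes of gene span, for all protein-coding genes (pale bars, number of genes above) and the Ptpn and Ptpr genes (dark bars, genes with a region over genes in the class above). The share rises with length from 9.0% to 43.2% over all genes, and the member classes hold 2 to 12 genes each.

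Among the 15 cytoplasmic phosphatases, with a median span of 60.9 kb, 8 had a shared region, against 15.3% of all protein-coding genes and 21.8% of those of 50 to 100 kb. Of these 8, 7 belonged to 3 small subfamilies, named after their values were seen. The SH2-domain phosphatases Ptpn6 and Ptpn11, the pair Ptpn1 and Ptpn2, and the PEST group of Ptpn12, Ptpn18 and Ptpn22 each had a shared region at every gene. The remaining one was at Ptpn3.

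Ptpn6 encodes SHP-1, which binds phosphorylated inhibitory motifs of receptors such as CD22 and limits antigen receptor signalling. Its span (chr6:124720707-124738709, minus strand) and flanks carried 6 replicate 2 peaks, 3 of them shared. Upstream of the start site, a region at chr6:124740572-124742062 scored 2162.4 in replicate 2 and 119.4 in replicate 3. Inside the gene, a region centred 5.5 kb after the start (chr6:124732632-124733747) scored 2217.9 and 85.1. At the far end of the span, a region at chr6:124720368-124721677 scored 3100 and 112.7. With 10.7 shared regions per 100 kb of window, Ptpn6 had the highest density of the members. The neighbours Phb2, Atn1 and Grcc10 lie within 5 kb of the outer regions, so these may be counted for them as well. The peak over the Ptpn6 promoter printed above scored 317.8 in replicate 2 and had no replicate 3 peak.

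Ptpn11 encodes SHP-2, which mostly carries signals forward from growth factor and cytokine receptors to the Ras pathway. Its 1 shared region lay beyond the end of the gene, 2.8 kb outside the span and 64.3 kb from the start site (chr5:121126524-121127743), with scores of 1460.8 and 95.2. The other 2 replicate 2 peaks of the gene were weak, with a lowest score of 77.1 and a median over the 3 peaks of 85.4.

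Ptpn22 encodes PEP, a phosphatase that acts with the kinase Csk on Src family kinases and is known for variants linked to autoimmunity. Among the 32 members with listed start sites, it alone had one under a peak of each replicate. The region at chr3:103858514-103860571 scored 2676.2 in replicate 2 and 149.0 in replicate 3, and the replicate 3 peak itself (chr3:103858719-103860208) covered the first start site. Bcl2l15 lies within 5 kb of it. A pair of weaker shared regions followed inside the gene, centred 14.3 and 17.1 kb after the second start site, with scores of 1076.6 and 84.3 and of 1330.5 and 77.7. In all, 12 replicate 2 peaks fell in the window of this gene of 55.7 kb.

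Ptpn18 and Ptpn12 encode the related phosphatases of the PEST group, which bind adaptors of the Pstpip type and act on the cytoskeleton and on kinases. The Ptpn18 region lay just inside the far end of the gene (chr1:34472106-34473653), 13.1 kb after the start site, with scores of 3100 and 203.2. Among its 6 replicate 2 peaks were others of 1552.0 and 1320.0 inside the gene and one of 873.1 at the promoter. The Ptpn12 region lay inside the gene (chr5:21029907-21031019) and scored 2468.3 and 209.6.

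Ptpn1 encodes PTP1B, which dephosphorylates the insulin receptor and Janus kinases, and Ptpn2 encodes the closely related TC-PTP, which acts on Jak and Stat proteins downstream of cytokine receptors. The Ptpn1 region had the second highest replicate 3 score of the set. It lay upstream of the gene at chr2:167924659-167926816, its centre 6.6 kb before the start site, and scored 3100 and 539.1, rank 335 of the 6133 shared regions by replicate 3 score. Its promoter carried a replicate 2 peak of 1288.0 without a replicate 3 peak, and a further peak inside the gene scored 2030.8 in replicate 2 alone. The Ptpn2 region crossed one end of the span (chr18:67723836-67725290) and scored 2359.9 and 99.3. Peaks of both replicates covered that end, at position 67724632. No start site was listed for Ptpn2, so whether these peaks cover one was not checked.

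The remaining cytoplasmic genes were mostly marked in replicate 2 alone. Ptpn3, a phosphatase with FERM and PDZ domains, had a region inside the gene (chr4:57198434-57199826) with scores of 3100 and 334.5, while its relative Ptpn4 had 6 replicate 2 peaks and none shared, the best at its promoter with 702.9. Ptpn13, Ptpn23, Ptpn9, Ptpn14 and Ptpn21 had best replicate 2 scores of 1823.7, 1973.0, 691.7, 307.2 and 257.5. Ptpn20 had no peak in any list.

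Receptor-type genes, with Ptpn5 and Ptpn7 counted in the subfamily of Ptprr, had shared regions at 13 of 22 members, with 23 regions in all. The share was 15.3% over all protein-coding genes, and 32.5% and 43.2% over genes of 100 to 200 kb and above 200 kb. The median span of these members was 150 kb. The genes best known from leukocytes are described first.

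Ptprc encodes CD45, the abundant leukocyte phosphatase whose long isoform is the B220 marker of B cells. Its start sites had no peak in either replicate, as the printed promoter illustrates. Both shared regions lay deep inside the gene, 29.3 and 38.9 kb after the second start site. The nearer one (chr1:138145249-138146309) scored 2194.8 and 97.0, and the farther one (chr1:138135173-138137228) scored 3100 and 195.6. A further strong peak (chr1:138125000-138126020) scored 1851.9 in replicate 2 and had no replicate 3 peak. Ptprcap encodes a CD45-associated protein and is not a phosphatase. It had 2 replicate 2 peaks, of 1899.9 and 752.8, and no shared region in its window. The stronger peak lay 4.5 kb outside the span and within 5 kb of Cabp4, Coro1b and Gpr152. The shared region nearest to Ptprcap lay 6.71 kb from the span (chr19:4146783-4147941, scores 3042.0 and 86.3), just outside the 5 kb limit.

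Ptprj encodes CD148, which overlaps in function with CD45 in B cells and macrophages. It held 20 replicate 2 peaks and 5 shared regions over a span of 151 kb (chr2:90429756-90580694, minus strand), more shared regions than any other member. Close to the upstream start site, a region at chr2:90578695-90579859 scored 2385.4 and 92.8. Another, centred 6.5 kb after that site (chr2:90573267-90574902), scored 1891.6 and 70.8, the lowest replicate 3 score of all 35 regions. The other 3 flank the downstream start site. Centred 25.4 kb before that site, chr2:90503627-90505578 scored 3100 and 116.0. Centred 9.9 kb before it, chr2:90488555-90489629 scored 2073.2 and 107.8. Centred 4.2 kb after it, chr2:90474422-90475566 scored 2957.6 and 151.2. The stretch between both groups held weaker replicate 2 peaks only, the best of them at 1607.4. The upstream promoter itself was under a replicate 2 peak of 717.3, and a peak of 2056.6 outside the span was the strongest member peak without a replicate 3 partner. The predicted gene Gm46752 lies within 5 kb of the region nearest to the start.

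**Figure D3:**
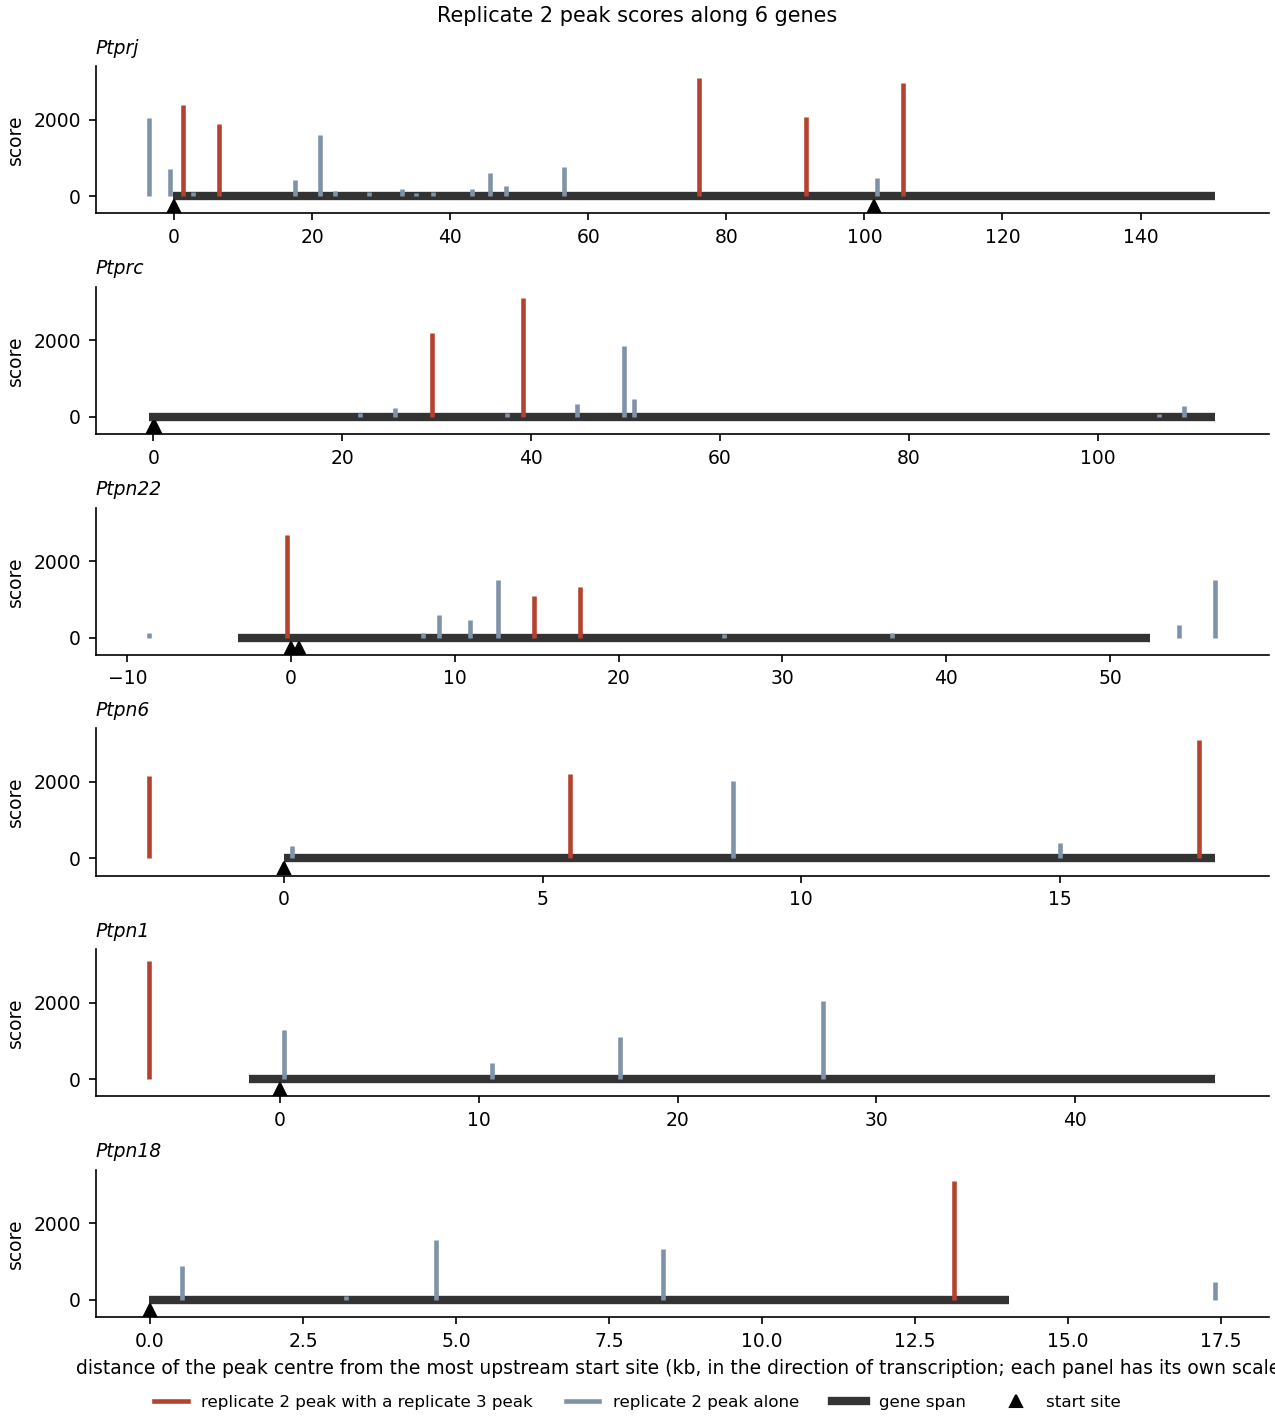
Score of each replicate 2 peak (vertical lines) against the distance of its centre from the most upstream listed start site, in kb along the direction of transcription, at Ptprj, Ptprc, Ptpn22, Ptpn6, Ptpn1 and Ptpn18. Dark red lines are peaks with a replicate 3 peak, grey-blue lines are replicate 2 peaks alone, black bars are gene spans and triangles are start sites. Of these genes, Ptpn22 alone has a dark red line at its start site, and those of Ptprc stand 29.3 and 38.9 kb from the second one.

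Ptpn7 encodes a haematopoietic phosphatase of the MAP kinases Erk and p38. One broad replicate 2 peak of 3815 bases (chr1:135129943-135133757, score 3100) covered both of its listed start sites. The replicate 3 peak within it (chr1:135130734-135131656, score 101.5) was narrower and ended 1.04 kb before the nearer start site, outside the Ptpn7 span and inside that of the pseudogene Ptprv, which overlaps this end of Ptpn7. Under a stricter rule, in which the overlap must cover 50% of each peak, Ptpn7 had no shared region.

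Ptpro and Ptpre have forms used in haematopoietic cells as well as in other tissues. Ptpro had 13 replicate 2 peaks and 2 shared regions, both far inside the gene. The first, 67.9 kb after the start site (chr6:137319117-137321334), scored 2718.2 and 145.5, and the second, at 158.3 kb (chr6:137409845-137411263), scored 3073.0 and 122.1. The Ptpre region lay 49.6 kb after the nearest start site (chr7:135654732-135656065) and scored 2861.0 and 104.0. Ptpra, the paralogue of Ptpre that activates Src family kinases in many tissues, had 5 replicate 2 peaks up to 1752.0 and none in replicate 3.

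Shared regions were also present at receptor-type genes known mainly from nervous, epithelial or endocrine tissue. The highest replicate 3 score of the whole set, 576.0 (rank 289), was in Ptprt, a brain-expressed receptor phosphatase of 1140 kb. That region lay 735.4 kb from its start site (chr2:161925144-161926391; 3100 in replicate 2), and 2 further regions followed at 770.2 kb (3100 and 143.4) and 863.5 kb (2074.7 and 83.1). Ptprr, a neuronal MAP kinase phosphatase, had a region 14.5 kb after its nearest start site (chr10:116191227-116192549; 3100 and 325.4). Ptprh, known from the intestinal epithelium, had 3 regions inside its 55.4 kb, at chr7:4571993-4573017, chr7:4581112-4582153 and chr7:4596624-4597754. Their replicate 2 scores were 1860.0, 2145.2 and 2080.8 and their replicate 3 scores 113.4, 163.0 and 134.8, so 3 of its 4 replicate 2 peaks were shared.

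The other regions at receptor-type genes were single. Ptprn, a catalytically inactive protein of secretory granules, had one at chr1:75241229-75242350 (2381.2 and 244.6). It lay 4.7 kb beyond the span, just inside the 5 kb limit, and also within 5 kb of Dnajb2. Ptprs, a receptor for proteoglycans, had a region inside the gene (chr17:56442380-56445080; 3107.7 and 104.8). Ptprd, the longest member at 2270 kb, had 23 replicate 2 peaks and 1 shared region (chr4:78042759-78044033; 1655.5 and 97.9). Ptprk had one near the far end of its span (chr10:28593406-28594588; 1637.7 and 81.0), and Ptprg had one 2.6 kb before its first start site (chr14:11550272-11551547; 1843.9 and 84.5). Receptor-type genes with replicate 2 peaks alone were Ptprn2, Ptprm, Ptprf, Ptprq, Ptprb, Ptprz1, Ptpn5 and Ptpra. Of these, Ptprn2 had the most, 17 peaks with a best score of 1376.2. Best scores were 1260.0 at Ptprm, 984.2 at Ptprf and 831.4 at Ptprq. Ptprb, Ptpn5 and Ptprz1 had 1 peak each, of 199.5, 127.9 and 94.0. Ptpru had none.

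Of the 35 shared regions, 27 lay inside the gene span (77.1%), 3 across an end and 5 outside. The window of span plus 5 kb favours positions inside long genes. Counted the same way, a comparison added after the values were seen, 60.7% of regions at all protein-coding genes and 84.9% at those above 50 kb lay inside. For the 32 regions at genes with a listed start site, 21 were centred more than 10 kb from the nearest one (65.6%, against 51.3% at all genes and 75.6% at those above 50 kb), and 2 covered one. Replicate 3 scores ran from 70.8 to 576.0 with a median of 113, against 136 for all shared regions, and 23 of 35 reached 100 (65.7%, against 70.5% of all shared regions). The score was below 150 in 25 regions, 150 to 250 in 6 and higher in 4, those of Ptprt, Ptpn1, Ptpn3 and Ptprr. Scores of both replicates ranked together over the 35 regions with a Spearman correlation of 0.66, against 0.74 over all shared regions, and 0.64 over the 24 regions below the replicate 2 ceiling of 3100. Several regions share a gene, and none of the 35 is an independent replicate.

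**Figure D4:**
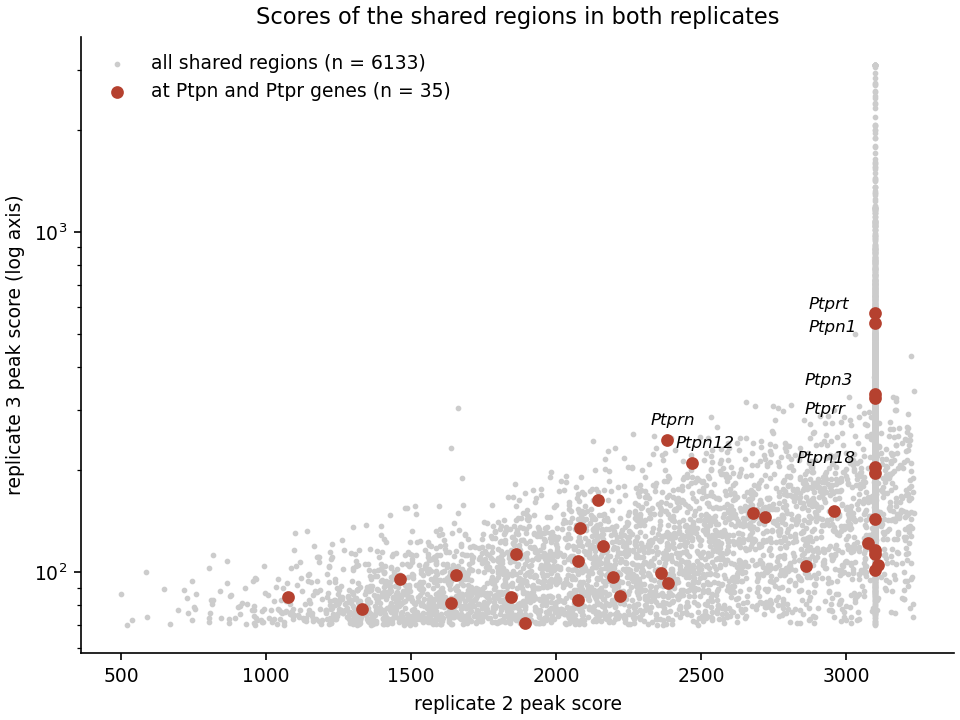
Replicate 3 score (log axis) against replicate 2 score for all 6133 shared regions (grey) and the 35 at Ptpn and Ptpr genes (red), with the 7 genes of highest replicate 3 score named. The red points lie within the grey cloud, and 10 of them stand on the line at 3100, where the replicate 2 score no longer separates peaks.

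Whether a replicate 2 peak at these genes also appeared in replicate 3 followed its score. The 220 replicate 2 peaks of the members had a median score of 304, against 232 for the whole list, and 35 of them overlapped a replicate 3 peak (15.9%, against 8.24% of the whole list). Of the 137 member peaks scored under 500 and the 22 from 500 to 1000, 0 did, against 0.00775% and 0.603% of the whole list. From 1000 to 2000 the count was 8 of 31 (17.5% of the whole list), from 2000 to 3100 it was 16 of 19 (71.1%), and at 3100 or above 11 of 11 (97.1%). Scores of 3100 or above made up 5.0% of the member peaks and 3.57% of the whole list. The merged list held 143 of the 220 (65.0%, against 66.5%) and every shared region fell in 1 of its intervals. Ptpn5 and Ptprz1 had a replicate 2 peak but no merged interval.

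Other tyrosine and dual-specificity phosphatases were counted the same way, from a list chosen on function. Of 37 genes, 11 had a shared region (29.7%, against 15.3% of all protein-coding genes), with a median span of 18.4 kb. A replicate 2 peak was present at 26 of the 37, against 70.7% of all protein-coding genes. The highest replicate 3 scores were at Eya4 (333.3), Dusp4 (233.8), Dusp5 (204.8), Eya2 (180.2), Dusp7 (178.8) and Dusp2 (163.7), the Dusp genes encoding phosphatases of MAP kinases. Ssh2, a phosphatase of cofilin, had 5 shared regions with a best replicate 3 score of 156.8. Members of the Cdc25 group, which drive the cell cycle, had none.

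Kinases, inhibitory receptors and adaptors that work with the phosphatases had a shared region at 17 of 35 genes (48.6%), against 15.3% of all protein-coding genes. Their median span was 29.2 kb, and the share over all genes of 20 to 50 kb was 16.5%. All 35 had a replicate 2 peak, against 70.7% of all protein-coding genes and 80.6% of those of 20 to 50 kb. Among kinases the count was 6 of 14, with Lyn, the main Src family kinase of B cells, having 3 regions and a best replicate 3 score of 372.6, Fyn having 4 (255.0), and Csk, the partner of Ptpn22, having 2 (121.8). Among inhibitory receptors it was 6 of 12, including Btla (286.4), Pirb (227.2) and Sirpa (197.1), which recruit Ptpn6 or Ptpn11. Cd22 and Cd72, also partners of Ptpn6, had no shared region. Their best replicate 2 peaks scored 304.9 at Cd22 and 3024.6 at Cd72. Among adaptors it was 5 of 9, with Pstpip2 (670.3), Blnk (412.6) and Pstpip1 (348.1) having the highest scores. Pstpip1 and Pstpip2 bind phosphatases of the PEST group, each member of which had a region of its own.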

How the data were processed

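Per the submitters' processing notes, the tools were Trim Galore, Bowtie and MACS 1.4.1 and the build was mm10; each ChIP library has its own peak list. Neither use of the input as control nor how the merged list arose is given in the sources used here. The score in each deposited list is the authors' peak caller's own value, without normalization between libraries. The merged list scores 0 throughout and gave positions only. Read depth was not used here, so no depth-based interval is given.

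Starts were converted to 1-based coordinates. Peaks overlapping by 1 bp or more were merged, and gene spans came from RefSeq (GRCm38.p6), without exons. Overlap rules were tested on simulated intervals (Python 3.11.15, pandas 2.3.3, NumPy 2.4.6). No test was run. The members, lists and naming rule were chosen with earlier results of these data known. Named were all members with a shared region (up to 4 regions each, with all 5 of Ptprj given after their values were seen), fixed leukocyte genes, the 8 other members with the highest replicate 2 score, members without peaks, and in each list 6 genes by replicate 3 score. Ssh2, Csk, Sirpa, Pirb, Cd22, Cd72 and members with weaker peaks were named after their values were seen. Start sites for Ptprb, Ptprcap, Ptprd, Ptprq, Ptpn2 and Ptpn12 were not used. Nothing in the labels says that the libraries came from separate cultures.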

Additional observations from a re-analysis of the deposited data

How the results depend on the processing

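The count of 21 members with a shared region was 17 with the gene span alone or plus 1 kb, where Ptprn, Ptprg, Ptpn1 and Ptpn11 were lost, and 22 with 10 kb, where Ptprcap was gained. Within 5 kb of either end of the span it fell to 11, and Ptprc, Ptprr, Ptprs, Ptprt, Ptpn3, Ptprd, Ptpn12, Ptpro, Ptprh and Ptpre were lost, because that setting leaves out the gene interior. The same restriction gave 11 members with a replicate 3 peak in place of 21, 22 with a merged interval in place of 34, and 7 of the other phosphatase genes in place of 11. Scores of at least 100 in both lists left 16 members, without Ptprk, Ptprg, Ptpn2, Ptprd and Ptpn11, and overlap of 50% of both peaks left 20. Leaving out a library gave 21 members without replicate 2 and 36 without replicate 3. Ptpn18, Ptprj, Ptpn22 and Ptpn6 kept a shared region under every alternative listed. No paired analysis was possible because the result comes from no test and there is 1 group of ChIP libraries. Replicate 3 is far shorter than replicate 2, so absence of a replicate 3 peak does not show absence of binding. Without a genome sequence, motifs inside peaks away from promoters were not searched.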
